A study of Micropterus salmoides with 45 samples.

Results

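These results describe 82 of the 2660 genes listed in liver libraries of Micropterus salmoides, the largemouth bass, a predatory fish of fresh water: those that stood high in severe hypoxia from 4 h to 24 h and in moderate hypoxia at 24 h. They were chosen by measured values. With levels taken as log2(RPKM + 1) and averaged over the 3 libraries of a group, a gene was kept when severe hypoxia exceeded control by at least 0.8 at each of 4, 8, 12 and 24 h, when moderate hypoxia exceeded control by at least 0.6 at 24 h, and when its mean over the 15 control libraries was 2 to under 100 RPKM. RPKM is the number of reads of a gene scaled by its length and by the total reads of its library. All 82 genes had reads in every library that lists them, and all passed the filter on low values, as did 2656 of the 2660 genes.

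By its title, the study is about glucose and lipid utilization by the liver under acute oxygen shortage. Fish aged 6 months were held fasted at 20 °C in 9 tanks of 30 fish. The severe hypoxia group (SHG) was kept at 1.2 ± 0.2 mg/L dissolved oxygen, the moderate hypoxia group (MHG) at 3.0 ± 0.2 mg/L and the control group (CG) at 7 mg/L, each in 3 tanks. Liver was sampled at 0, 4, 8, 12 and 24 h in every group, with 3 libraries for each level and time, which gives 15 groups and 45 libraries. The 0 h point was not taken before exposure: it was set once nitrogen had brought the water down to its oxygen level. No genotype, strain or transgene is named, and fasting and confinement were shared by all groups, controls included. The labels state that 5 fish were taken per tank but not from which fish or tank each library was made, so the p-values measure only the spread between these samples. Tank and oxygen level cannot be told apart, because each level had its own tanks.

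The cellular response to low oxygen is built around the hypoxia-inducible factors. Their alpha subunits are hydroxylated and degraded while oxygen is plentiful, and they accumulate and bind hypoxia response elements when it falls. In liver the best known targets raise glucose uptake and glycolysis, shift pyruvate away from the mitochondria and alter fat storage and use, alongside stress programmes that slow growth. Which of these roles the 82 genes have is not known from the files: the identifiers are those of a Trinity assembly of the reads, and 0 of the 2660 matched the RefSeq gene table at hand. Lists of hypoxia, glycolysis, gluconeogenesis and lipid genes, and the markers of hepatocytes and other cell types, could therefore not be applied, and the tissue was not checked against its markers. A Trinity identifier gives a component (c) and a gene within it (g). Genes of one component can be parts or copies of one gene and can share reads. In whole liver, a change in the share of a cell type and a change of RNA per cell cannot be told apart.

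Library totals ran from 29986862 to 33433838 reads, recovered from the RPKM steps, and the listed genes held 10.9% to 14.95% of them. This share differed by group: it was 13.2% to 14.95% in SHG at 12 and 24 h, and 10.9% to 12.7% in the CG and MHG libraries. The 82 genes had a median of 1005 reads per library, against 422 for all listed genes and 543 for all genes within the same control range. Single values went down to 8 reads in a library. The median length of the 82 was 2983.5 bp, against 2584.5 bp for all listed genes. Their mean control level had a median of 6.32 RPKM and ran from 2.05 to 97.7 RPKM. The table of control 8 h replicate 2 ended early and lacked 6 of the 82 genes, whose values there rest on the other 2 libraries.

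Each library was summarised by its median over the 82 genes on the log2(RPKM + 1) scale, which does not show that every gene moved alike. In SHG this median was 3.74 to 3.85 at 0 h. At 4 h it was 4.22 to 4.62, at 8 h 4.81 to 5.03, at 12 h 4.70 to 5.44 and at 24 h 5.11 to 5.15. In MHG it was 3.16 to 3.47 at 0 h, 2.50 to 3.93 at 4 h, 2.80 to 3.96 at 8 h, 2.22 to 3.50 at 12 h and 4.15 to 4.64 at 24 h. The 15 CG libraries lay between 2.002 and 3.38, and both ends were 24 h libraries. Every SHG library lay above every CG library, those of 0 h included, whereas the MHG libraries overlapped CG up to 12 h and stood clear of it at 24 h. The severe values from 4 h on and the moderate values at 24 h chose the genes, so these positions are a description.

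**Figure D1:**
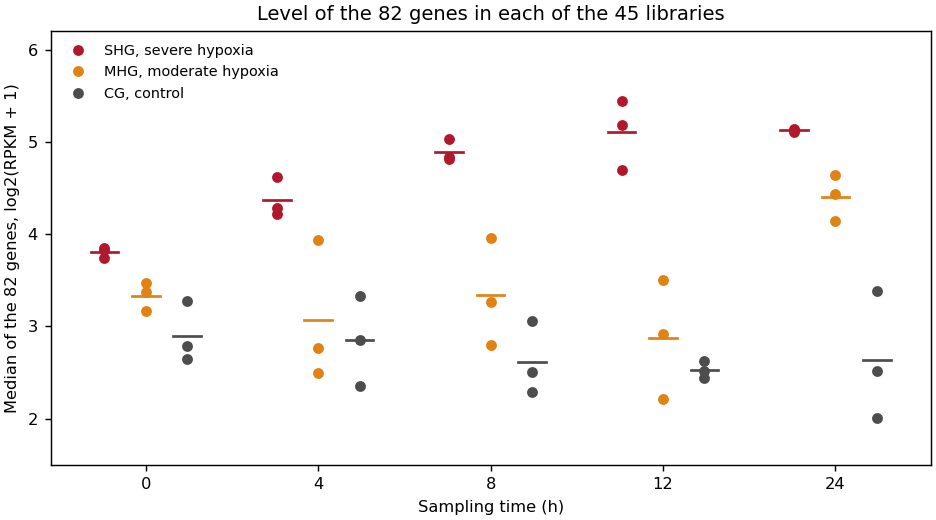
Median level of the 82 genes in each of the 45 libraries, as log2(RPKM + 1), by sampling time in h (times evenly spaced); points are libraries and bars are means of 3. The SHG libraries climb to 5.11 to 5.15 at 24 h, the MHG libraries spread widely at 4, 8 and 12 h and stand at 4.15 to 4.64 at 24 h, and the CG libraries stay between 2.002 and 3.38.

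The genes differed from control by amounts that depended on time and on oxygen level. The difference SHG minus CG at 0, 4, 8, 12 and 24 h had medians over the 82 genes of 0.70, 1.39, 2.04, 2.23 and 2.05. Over all 2660 listed genes the same medians were -0.0058, 0.076, -0.0086, 0.070 and 0.22. The difference MHG minus CG at the same times had medians of 0.31, 0.21, 0.64, 0.50 and 1.32 over the 82 genes, against 0.039, 0.067, 0.010, -0.033 and 0.013 over all listed genes. Against its own 0 h, SHG differed at 4, 8, 12 and 24 h by medians of 0.47, 1.08, 1.14 and 1.08 over the 82 genes. Over all listed genes these were -0.018, 0.018, 0.019 and 0.11. CG differed from its own 0 h by -0.16, -0.32, -0.45 and -0.34, against -0.077, 0.027, 0 and -0.025 over all listed genes. By these medians the severe difference held both higher SHG values and lower CG values than at 0 h. The SHG and CG libraries of 4 to 24 h chose the genes, which favours high SHG and low CG values there. These medians are therefore a description, and no fall in CG is read from them. The 3 SHG libraries all lay above the 3 CG libraries of their time for 53 of the 82 genes at 4 h (12.6% of all listed genes), 82 at 8 h (28.0%), 81 at 12 h (38.7%) and 77 at 24 h (41.8%). For MHG against CG the same held for 9 genes at 4 h (5.45% of all listed genes), 22 at 8 h (11.3%), 11 at 12 h (8.57%) and 65 at 24 h (24.8%). Nothing is read from these shares, because SHG from 4 h, MHG at 24 h and the controls they share with the other MHG times chose the genes. For 29 of the 82 genes, all 12 SHG libraries of 4 to 24 h lay above all 15 CG libraries. These values also chose the genes, and the share over all listed genes was not counted, so nothing is read from this number.

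The size of the severe difference varied widely among the genes. The largest mean over 4 to 24 h was that of c81327_g2, at 3.78 on the log2 scale. It had 78.8, 84.7 and 78.9 RPKM in SHG at 8 h and 84.2, 89.5 and 81.5 RPKM in SHG at 24 h. In MHG it had 8.06, 3.20 and 43.1 RPKM at 8 h and 11.5, 13.4 and 12.7 RPKM at 24 h. In CG it had 8.41, 3.05 and 2.23 RPKM at 8 h and 1.95, 13.0 and 2.37 RPKM at 24 h. The SHG libraries agreed closely at both times, while a single MHG library at 8 h and a single CG library at 24 h stood far above their partners.

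The next largest was c63277_g1, with a mean severe difference of 3.77 and the smallest moderate share of all. At 24 h it had 48.1, 118 and 22.1 RPKM in SHG, 3.15, 7.43 and 8.44 RPKM in MHG and 3.04, 3.07 and 2.25 RPKM in CG. Its SHG libraries differed widely among themselves and still lay above all MHG and CG libraries of that time. At the other end stood c88517_g2, with a mean severe difference of 1.03, and c90381_g3, with 1.13. The gene c88517_g2 had 41.6, 43.1 and 34.4 RPKM in SHG at 24 h, 25.1, 32.8 and 33.1 RPKM in MHG and 8.84, 25.3 and 20.8 RPKM in CG. Its SHG libraries were all above the CG ones, and 1 CG library was far lower than its partners. Gene c90381_g3 had 37.8, 27.6 and 44.3 RPKM in SHG at 24 h, 29.5, 33.1 and 35.3 RPKM in MHG and 13.4, 24.3 and 12.8 RPKM in CG, so that SHG and MHG overlapped each other and not CG.

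The severe difference was largest at 12 h for 37 genes, at 24 h for 25, at 8 h for 17 and at 4 h for 3. Over all listed genes, whichever way they differed, these shares were 18.7%, 34.3%, 13.0% and 34.1%. It was larger at 24 h than at 4 h for 56 genes and smaller for 26, and it grew at every step for 16. Among the 86 genes of the same control range whose severe difference passed 0.8 from 8 h but not at 4 h and which also reached 0.6 in MHG at 24 h, the largest difference fell at 12 h for 43 and at 24 h for 40. By their limits these 86 could not have it at 4 h. The severe values of 4 to 24 h chose both sets, so all these counts are a description.

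**Figure D2:**
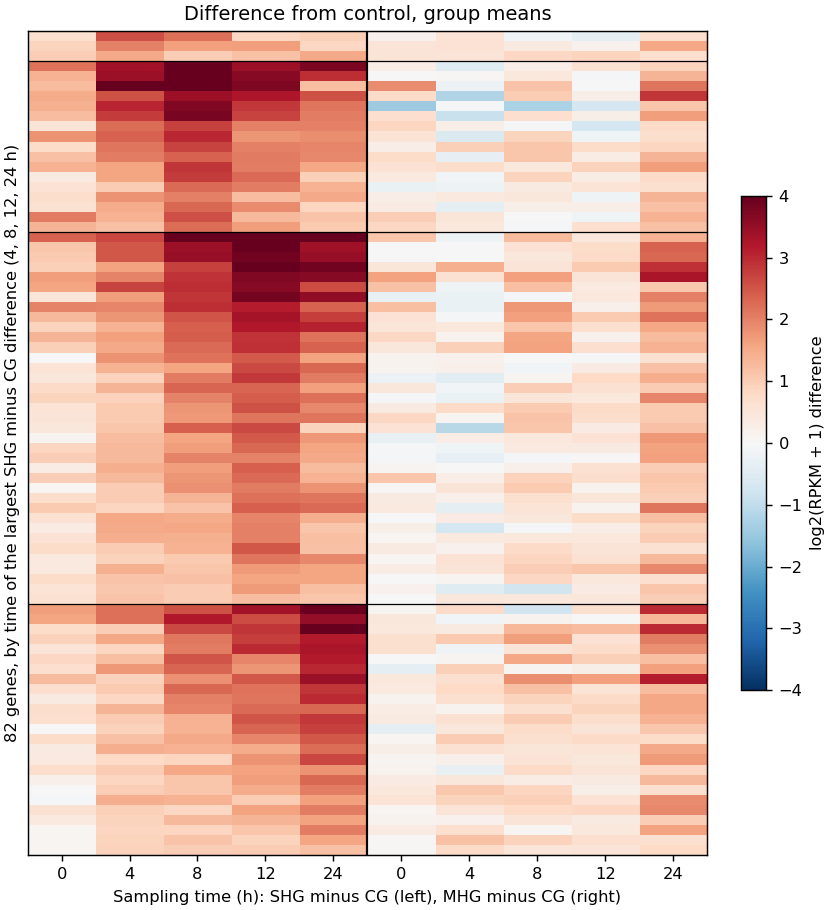
Difference of group means from CG on the log2(RPKM + 1) scale for the 82 genes (rows), SHG minus CG left and MHG minus CG right, at 0, 4, 8, 12 and 24 h; rows are ordered by the time of the largest severe difference, with lines between the blocks of 3, 17, 37 and 25 genes, and the colour scale ends at 4. By the choice of genes, every row is red on the left side from 4 h on and on the right side at 24 h. At 0, 4, 8 and 12 h, MHG was above CG in 69, 52, 70 and 73 of the 82 genes. Over all listed genes these shares were 56.4%, 56.5%, 50.9% and 45.9%. Many rows already show a red 0 h column on the far left.

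The steepest growth was that of c88762_g2, whose severe difference was larger by 3.10 at 24 h than at 4 h. It had 17.0, 11.2 and 21.0 RPKM in SHG at 4 h and 82.1, 84.4 and 55.5 RPKM in SHG at 24 h. In MHG it had 11.04, 6.74 and 13.2 RPKM at 4 h and 32.8, 30.5 and 36.4 RPKM at 24 h, and in CG 6.35, 3.11 and 19.5 RPKM at 4 h and 2.98, 5.21 and 2.31 RPKM at 24 h. The SHG and CG libraries overlapped at 4 h and were far apart at 24 h, where MHG lay between them. For c86982_g16 the growth was 2.53, and by group means both SHG and CG moved. Relative to its own 0 h, SHG went from -0.087 at 4 h to 1.02 at 24 h, and CG from 0.25 to -1.18. The gene had 27.5, 21.9 and 29.5 RPKM in SHG at 4 h, 46.9, 12.6 and 16.1 RPKM in MHG and 6.14, 4.16 and 78.9 RPKM in CG, so that 1 CG library exceeded all SHG libraries. At 24 h the same gene had 49.1, 60.7 and 63.4 RPKM in SHG, 43.2, 50.7 and 43.9 RPKM in MHG and 0.670, 11.7 and 6.16 RPKM in CG. The groups no longer overlapped CG at 24 h, and MHG nearly matched SHG. The CG means rest heavily on single libraries, that of 78.9 RPKM at 4 h and that of 0.670 RPKM at 24 h. These libraries also chose the gene, so no fall in CG is read from them.

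The course ran the other way for c73830_g1 and c88113_g1, early genes whose severe difference was smaller at 24 h than at 4 h by 2.90 and 1.64. Gene c73830_g1 had 243, 202 and 199 RPKM in SHG at 4 h, 30.4, 4.32 and 6.32 RPKM in MHG and 14.5, 3.37 and 28.5 RPKM in CG. At 24 h it had 14.6, 24.3 and 33.9 RPKM in SHG, 37.6, 36.3 and 67.8 RPKM in MHG and 7.67, 27.2 and 3.74 RPKM in CG. By then the SHG libraries overlapped CG and lay below all MHG libraries. Gene c88113_g1 had 51.3, 78.2 and 85.5 RPKM in SHG at 4 h, against 9.12, 20.5 and 6.59 RPKM in CG, and 57.8, 34.4 and 43.9 RPKM in SHG at 24 h, against 16.8, 30.2 and 22.6 RPKM in CG. Its SHG libraries stayed above the CG libraries at both times.

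**Figure D3:**
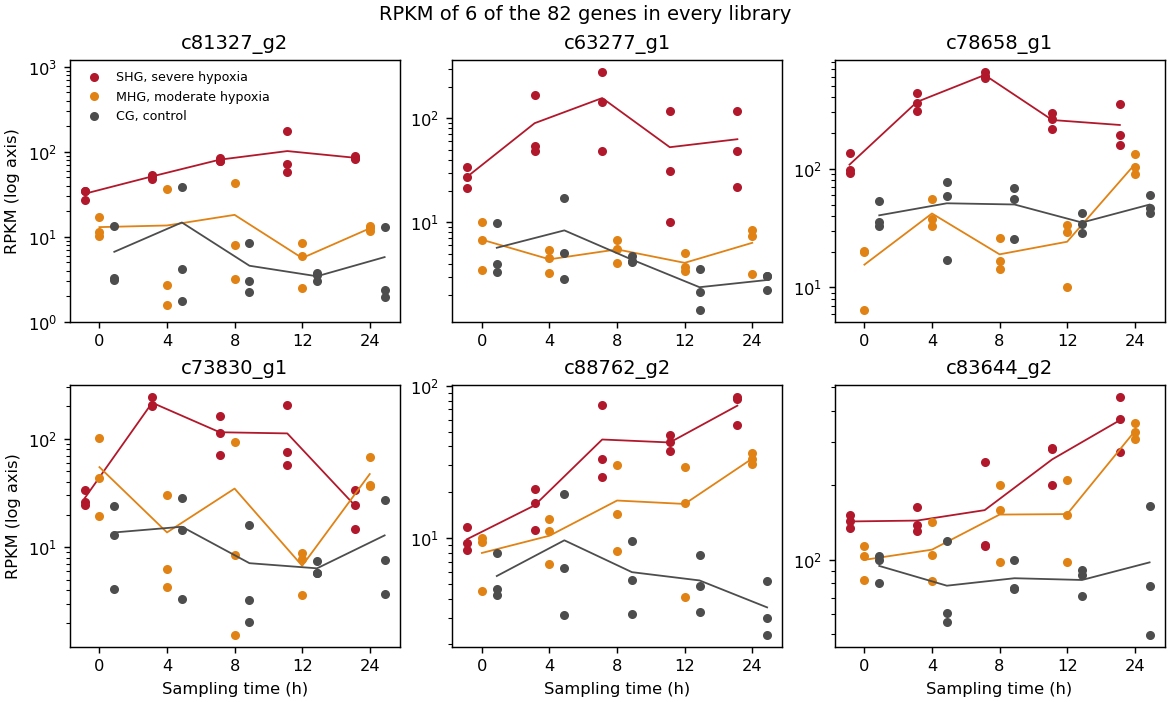
RPKM in every library (log axis) by sampling time in h (times evenly spaced) for 6 of the 82 genes; points are libraries and lines join the means of 3. Gene c88762_g2 and c83644_g2 climb to 24 h in SHG and MHG, c73830_g1 is highest in SHG at 4 h and lies below all MHG libraries at 24 h, and c78658_g1 in MHG lies below CG at 0 h.

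Moderate hypoxia reached a median of 67.6% of the severe difference at 24 h (quartiles 49.7% and 86.5%), as a ratio of log2 differences that share the same controls. The share ran from 23.3% for c63277_g1 and 29.3% for c82489_g1 to 180% for c73830_g1 and 189% for c89815_g1, and it was above 100% for 12 genes. Both differences in this ratio had to pass a lower limit in the choice of genes. The 33 genes that passed the severe limits but not the moderate one had a median moderate difference of 0.21 at 24 h. They were left out, which favours high shares. These shares therefore describe the chosen genes, and no strength of the moderate response is read from them. Gene c89815_g1 had 23.1, 26.6 and 31.6 RPKM in SHG at 24 h, 33.6, 49.1 and 56.9 RPKM in MHG and 18.1, 12.7 and 14.0 RPKM in CG. All MHG libraries of this gene lay above all SHG libraries, which in turn lay above all CG libraries. Its SHG values had been 49.2, 40.1 and 103 RPKM at 4 h. Gene c82489_g1 had 22.4, 22.9 and 10.1 RPKM in SHG at 24 h, 6.08, 6.94 and 1.86 RPKM in MHG and 2.14, 2.82 and 1.95 RPKM in CG, with 1 MHG library below the CG ones.

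**Figure D4:**
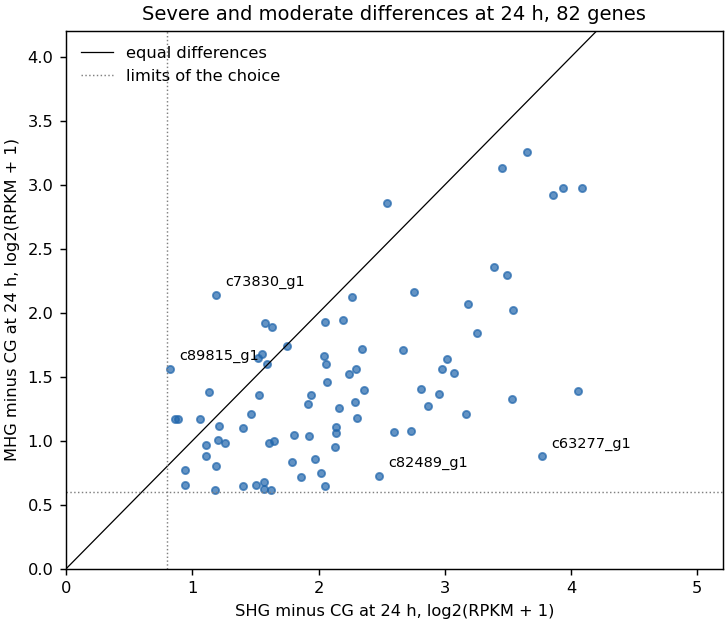
MHG minus CG against SHG minus CG at 24 h for the 82 genes, both on the log2(RPKM + 1) scale and against the same 3 CG libraries; the line marks equal differences and the dotted lines the limits of 0.8 and 0.6 used in the choice. The 12 genes above the line include c89815_g1 and c73830_g1, and c63277_g1 and c82489_g1 lie far below it.

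The 0 h libraries of the hypoxia groups were used nowhere in the choice, and the CG 0 h libraries entered only the limits on the control level. The fish of 0 h and of the later times shared the tanks of their oxygen level. A lasting difference between tanks would therefore enter both the choice and the 0 h values, and this was not tested. At 0 h, 79 of the 82 genes were higher in SHG than in CG, against 48.3% of all genes tested. The median difference was 0.70, the quartiles were 0.47 and 1.09, and the range was -0.047 to 2.37. For 51 genes the 3 SHG libraries lay above the 3 CG libraries, a pattern that 9.70% of all listed genes showed. By gene the tests did not pass adjustment: limma called 0 of the 82, as it called 0% of the 2656 genes tested, with a lowest adjusted p of 0.219 among the 82. At an unadjusted p under 0.05, 27 of the 82 genes (32.9%) were higher in SHG and 0 lower, while 3.92% of all genes tested were higher. Which libraries entered decided how many: the 27 became 14 without CG 0 h replicate 2 or replicate 3, 17 without SHG 0 h replicate 2, and 54 when only the compared groups entered the model. All these genes were measured in the same 3 libraries per group, so they are not separate observations. Their deviations from group means went together (median Pearson correlation over pairs 0.29, against 0.041 over all listed genes). A shift of 1 library can move many genes at once, here and in the other 0 h counts below.

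The largest 0 h difference was that of c81327_g2, at 2.37 ± 0.78 (SE; limma adjusted p 0.539). It had 35.0, 34.3 and 26.8 RPKM in SHG, against 13.6, 3.12 and 3.29 RPKM in CG. For c63277_g1 the difference was 2.18 ± 0.62 (adjusted p 0.353), with 33.6, 21.3 and 27.1 RPKM in SHG, against 9.74, 3.30 and 4.00 RPKM in CG. Neither gene overlapped between the groups. In both, CG 0 h replicate 1 stood well above the other 2 CG libraries. The 2 genes with the smallest mean severe difference over 4 to 24 h differed less at 0 h: c88517_g2 by 0.079 ± 0.28 and c90381_g3 by 0.61 ± 0.43 (adjusted p 1 for both). At 4, 8, 12 and 24 h, SHG differed from its own 0 h by 0.0054, 0.45, 0.27 and 0.19 in c88517_g2. CG differed from its own 0 h by -0.85, -0.47, -0.67 and -0.91 in that gene. In c90381_g3 these values were -0.10, -0.079, -0.036 and 0.23 in SHG and -0.64, -0.49, -0.65 and -0.27 in CG.

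Moderate hypoxia at 0 h lay between the other 2 groups by its median. In MHG, 69 of the 82 genes were above CG, against 56.4% of all genes tested, with a median difference of 0.31. The 69 became 59 to 67 with 1 library left out. The 3 MHG libraries lay above the 3 CG libraries for 5 of the 82 genes, against 5.15% of all listed genes. Of the 82, limma called 0 in this comparison (0% of all genes tested), and 4 genes were higher (2.33% of all genes tested) and 1 lower when p was left unadjusted, again under 0.05.

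In SHG at 0 h, 70 of the 82 genes were above MHG, against 43.8% of all genes tested, with a median difference of 0.42. The 3 SHG libraries lay above the 3 MHG libraries for 34 genes (6.17% of all listed genes). At an unadjusted p under 0.05, 12 genes were higher and 0 lower, while 1.81% of all genes tested were higher. That count was 31 when only the compared groups entered the model and 7 without SHG 0 h replicate 2. Only c78658_g1 passed adjustment, and it was the 1 gene called among all 2656 (0.0377%).

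Gene c78658_g1 set the 2 hypoxia levels apart from the start. At 0 h it had 92.2, 136 and 97.4 RPKM in SHG, 6.47, 19.9 and 20.3 RPKM in MHG and 35.7, 53.1 and 32.8 RPKM in CG. No library of one group reached the range of another, and SHG was highest and MHG lowest. SHG exceeded MHG by 2.85 ± 0.43 (SE) on the log2 scale, with a limma adjusted p of 0.000291; the adjusted p was 0.000204 to 0.196 over the alternatives tried, and only the model of the compared groups alone, at 0.196, lost the call. Against CG the differences were 1.41 ± 0.43 for SHG (adjusted p 0.439) and -1.45 ± 0.43 for MHG (adjusted p 0.640). Later it reached 612, 586 and 655 RPKM in SHG at 8 h, against 16.8, 14.3 and 25.9 RPKM in MHG and 69.1, 55.6 and 25.4 RPKM in CG. At 24 h it had 351, 193 and 158 RPKM in SHG and 89.5, 103 and 134 RPKM in MHG, against 42.4, 46.9 and 60.5 RPKM in CG, so that by then both hypoxia groups lay above control.

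Genes with the same severe difference but under 0.6 in MHG at 24 h, 33 in number, were higher in SHG than in CG at 0 h in 26 cases, with a median of 0.39. For the 86 genes whose severe difference reached 0.8 from 8 h but not at 4 h, this was so for 65, with a median of 0.22. In MHG at 0 h, 31 of the 33 genes and 61 of the 86 were above CG, with medians of 0.30 and 0.13. Standing above CG in MHG at 0 h was therefore not particular to the 82. At 4 h the severe difference of these 86 had a median of 0.47, and 80 of them were above 0, against 55.1% of all listed genes. The severe values at 4 h and later defined these 86, so their 4 h values are a description. Whether these sets differ from the 82 at 0 h was not tested.

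Within moderate hypoxia, the 4, 8 and 12 h libraries were set against the group's own 0 h libraries, none of which the choice used. Such a difference holds elapsed time and fasting as well as oxygen. The median over the 82 genes was -0.21 at 4 h, 0.073 at 8 h and -0.23 at 12 h, against -0.045, 0 and -0.11 over all genes tested. At these times 25, 48 and 27 of the 82 genes were above their start, against 43.5%, 49.5% and 38.2% of all genes tested. Over the same hours CG differed from its own start by medians of -0.16, -0.32 and -0.45, against -0.077, 0.027 and 0 over all listed genes. Unlike these MHG libraries, the CG libraries of 4, 8 and 12 h entered the choice, which favours low CG values there. The CG medians are therefore no unselected baseline for time or fasting. Of the 82 genes, limma called 0 at 4 h (0.0377% of all genes tested), 0 at 8 h (0%), 0 at 12 h (0.301%) and 0 for the mean of the 3 times (0.339%). In either direction, an unadjusted p under 0.05 was reached by 7 genes at 4 h (4.97% of all genes tested), by 5 at 8 h (8.02%), by 8 at 12 h (11.9%) and by 7 for the mean (10.4%). These shares are near those of all genes tested, and nothing about the set is read from them. Of the genes that passed, 6 of 7 at 4 h and 6 of 8 at 12 h were lower than at the start. Over all genes tested most that passed were lower too, 90 of 132 at 4 h and 206 of 316 at 12 h. Leaving out a library could add a single call, in each case of a gene lower than at its start. Without MHG 0 h replicate 2, c93449_g1, named after its values were seen, was called at 12 h and for the mean, and without MHG 12 h replicate 2 at 12 h. Without MHG 8 h replicate 3, c73830_g1 was called for the mean.

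**Figure D5:**
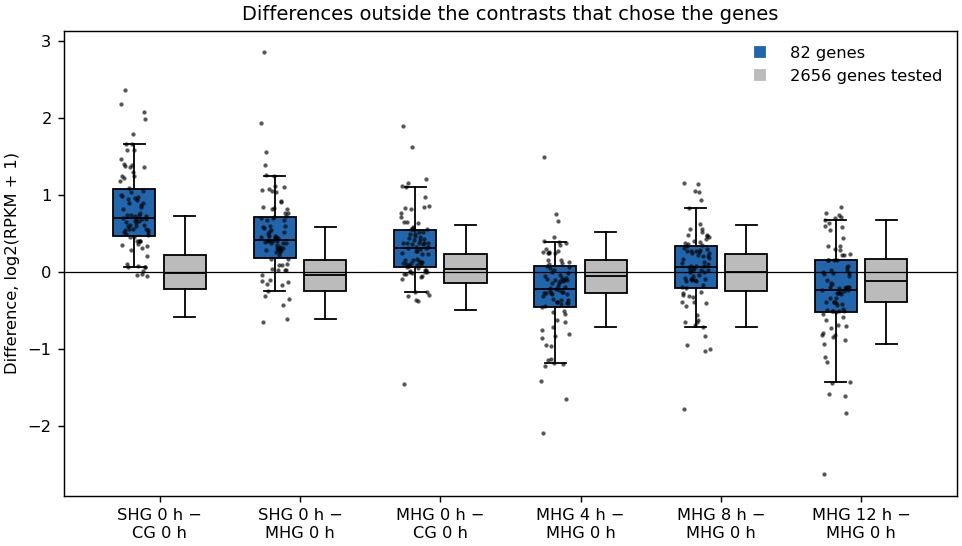
Log2(RPKM + 1) differences of the 82 genes (blue, points are genes) and of all 2656 genes tested (grey) for 6 comparisons outside the contrasts that chose the genes; boxes span the quartiles with the median and whiskers the 5th to 95th percentile. The 82 genes sit above 0 in SHG minus CG at 0 h (median 0.70) and SHG minus MHG at 0 h (median 0.42), and around or below 0 in MHG against its own start.

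At 24 h the MHG levels were higher than the group's own start by a median of 0.61 and in 71 of the 82 genes. Over all listed genes the median was -0.11, and 42.9% were higher. CG differed from its own start by a median of -0.34 over the 82 genes, against -0.025 over all listed genes. The moderate difference from CG was larger at 24 h than at 4, 8 or 12 h for 66 genes. For 30 genes, all 3 MHG libraries of 24 h lay above all 9 MHG libraries of 4, 8 and 12 h. Neither this count nor that of the 66 genes was made over all listed genes. The 24 h values chose the genes, so these counts are a description.

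The 2 most abundant genes differed in the course of their moderate values. Gene c83644_g2, at a mean of 87.3 RPKM in CG, had 357, 328 and 309 RPKM in MHG at 24 h, against 49.5, 165 and 77.8 RPKM in CG. At 12 h its MHG libraries had 210, 97.7 and 151 RPKM, against 90.3, 86.7 and 70.9 RPKM in CG. All MHG libraries were above CG at both times, and by 24 h they lay in the range of SHG, which had 456, 273 and 372 RPKM. Gene c107557_g1, at a mean of 97.7 RPKM in CG, had 237, 240 and 185 RPKM in MHG at 24 h, against 64.9, 166 and 56.5 RPKM in CG. On the log2 scale, MHG at 24 h exceeded its own 0 h by 1.73 in c83644_g2 but by only 0.24 in c107557_g1. At 0 h the MHG libraries of c107557_g1 already had 193, 274 and 121 RPKM, against 108, 75.4 and 174 RPKM in CG. At 4 h its MHG libraries had 363, 24.0 and 37.6 RPKM, so that 1 of them was at the level of SHG, which had 392, 402 and 301 RPKM, and the other 2 were at or below the lower end of CG, which had 131, 35.3 and 143 RPKM.

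This spread between libraries of one group ran through the set. The median within-group SD of the 82 genes was 0.55 on the log2 scale, against 0.41 for all listed genes, 0.50 for the 33 genes with the severe rise alone and 0.42 for the 86 genes that rose from 8 h. Deviations from group means went together: over pairs of the 82 genes the median Pearson correlation was 0.29 (quartiles 0.071 and 0.50, 3321 pairs, 45 libraries), against 0.041 over pairs of all listed genes. The pairs share their libraries, so this is a description. The library medians of the set in MHG were 3.93, 2.50 and 2.77 at 4 h. The MHG libraries of 8 h had 3.26, 2.80 and 3.96, and those of 12 h had 3.50, 2.22 and 2.91. In CG at 24 h they were 2.002, 3.38 and 2.52. Single libraries, MHG 4 h replicate 1, MHG 8 h replicate 3, MHG 12 h replicate 1 and CG 24 h replicate 2, stood high for the set as a whole. In contrast, CG 24 h replicate 1 stood low, with 4 of the 82 genes above the CG mean of 24 h and a median of -0.43 from it. This library enters the 24 h limits of the choice for both SHG and MHG. The part that such libraries play in the group means was not tested beyond leaving each library out.

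The 82 genes came from 78 Trinity components, 4 of which held 2 of them each. The members of a component followed each other to different degrees. In c88698, c88698_g2 and c88698_g3 had deviations from group means that correlated at 0.79 over 45 libraries, with 71.0, 65.2 and 42.1 RPKM and 24.2, 22.7 and 14.2 RPKM in SHG at 24 h, against 4.58, 9.24 and 6.41 RPKM and 1.63, 2.97 and 1.26 RPKM in CG. In c89284 the correlation of c89284_g1 and c89284_g2 was 0.83, and both had their largest severe difference at 12 h, at 2.31 and 2.42. In c88113 it was 0.20. There c88113_g1 had its largest severe difference at 4 h (2.59) and c88113_g3 at 8 h (2.003). The fourth pair, c90039_g2 and c90039_g8, named after their values were seen, correlated at 0.94.

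The limits of the choice passed through a continuous range. Just inside were c89044_g3, with a severe difference of 0.805 at 4 h, and c83644_g2, with 0.817 at 8 h. Just outside were c85550_g8, with 0.799985 at 4 h, and c87376_g2, with a moderate difference of 0.587 at 24 h. In all, 22 of the 82 genes lay within 0.1 of a limit, and 27 other genes missed a single condition by under 0.1. Without CG 24 h replicate 1 the rule kept 67 genes, and without CG 4 h replicate 3 it kept 94. Of the 82 genes, 35 were kept whichever of the 30 libraries of the rule was left out.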

How the data were processed

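RNA of liver was measured in 45 libraries, in 15 groups of 3. Per the labels' protocols, TruSeq libraries gave paired-end reads of 125 bp, which Trinity assembled. The deposited tables name no unit and were taken as RPKM, because every one of the 117443 nonzero values came out as whole reads (tolerance 0.01) for a single set of gene lengths and totals. How reads were aligned and counted, and why these 2660 genes are listed, is not given in the sources used here. Library totals give each gene its depth, and reads of one pair are not independent molecules.

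The members, the gene lists and the tests were chosen with earlier results of these data known. Differences are on log2(RPKM + 1), which understates the change of low genes. Tests covered the 2656 genes that reach 1 RPKM in 3 or more libraries, in one model of the 15 group means (limma 3.58.1, R 4.3.3, intensity trend), with Benjamini-Hochberg adjusted p under 0.05 as a call. The 7 tested contrasts avoid those that chose the genes: SHG and MHG against CG and each other at 0 h, and MHG at 4, 8 and 12 h and their mean against MHG at 0 h. Where tests that share the SHG, MHG or CG 0 h libraries are set side by side, they are not independent. Named genes are the 2 highest and 2 lowest by mean severe difference, by moderate share at 24 h and by growth between 4 and 24 h, the 2 most abundant in CG, called genes, the 2 on either side of the limits, those of 3 components that hold several, and those with opposite differences in the 2 hypoxia groups. The procedure was tested on simulated data. No 2 libraries of a group were alike: over the 45 pairs, chi-square per gene was 25.1 or more. Replicate numbers were not taken as pairs, since the correlations of same-numbered deviations were not all above 0.1.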

Additional observations from a re-analysis of the deposited data

Results flagged for a closer look

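In 3 of the genes, SHG and MHG lay on opposite sides of the CG mean at the same time. Every library of SHG was on one side of that mean and every library of MHG on the other. For c78658_g1 at 0 h, SHG exceeded MHG by 2.853 on the log2 scale, and this difference passed adjustment (limma adjusted p 0.000291). The same gene had SHG above and MHG below the CG mean at 8 h, a difference of 4.992, and at 12 h, a difference of 3.506. Its MHG and CG libraries overlapped at 8 h and at 12 h. For c63277_g1 at 4 h the difference was 3.856, with SHG 3.36 above the CG mean and MHG 0.50 below it. Its MHG libraries had 5.45, 4.48 and 3.27 RPKM, within the range of CG, which had 5.12, 2.86 and 17.1 RPKM. For c89284_g1 at 0 h the difference was 0.9095, with SHG 0.85 above the CG mean and MHG 0.056 below it (limma adjusted p 0.857). There too MHG, with 4.76, 4.77 and 4.36 RPKM, lay within the range of CG, which had 7.56, 3.90 and 3.77 RPKM. The differences at 4, 8 and 12 h were not tested, because the SHG values there chose the genes. Only genes named by the rule were searched for this pattern. Groups of 3 libraries are too small for a search for single outlying libraries.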

How the results depend on the processing

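The number of genes kept by the rule, 82, was 37 with a pseudocount of 5 and 45 with limits of 1.0 and 1.0, and ran from 67 to 94 when 1 library was left out. Calls at an adjusted p under 0.05 stayed at 0 under every alternative for MHG at 4 h and 8 h against its start, and for SHG and MHG against CG at 0 h. Leaving out 1 library gave 0 to 1 call for MHG at 12 h and 0 to 1 for the mean of 4, 8 and 12 h. For SHG against MHG at 0 h the 1 call became 0 when only the compared groups entered the model. At an unadjusted p under 0.05, the 27 genes higher in SHG than in CG at 0 h became 54 in that model and 14 to 34 with 1 library left out, and the 12 higher in SHG than in MHG became 31 and 7 to 11. These unadjusted counts were added after the data were seen. With 1 library left out, the genes higher in SHG than in CG at 0 h numbered 75 to 81 of 82. Under the other alternatives they numbered 75 to 79, where the total was not always 82, and 77 of 82 after quantile normalization. That normalization shifted the median of all listed genes by -0.10 at 4 h and -0.19 at 24 h in SHG minus CG. The medians of the 82 genes there became 1.29 and 1.77. With 1 library left out, the median of MHG minus its own start ranged over -0.54 to 0.049 at 4 h, -0.13 to 0.30 at 8 h and -0.45 to 0.049 at 12 h, and that of MHG minus CG over -0.050 to 0.51 at 4 h, so these signs are not fixed. With a replicate block, the call for SHG against MHG at 0 h remained 1 and the others 0, and the unadjusted counts were 27 against CG and 13 against MHG. The causes of these shifts were not tested. Same-numbered samples had deviations correlated at -0.176 to 0.21. The genes had a median of 1005 reads per library, but c63277_g1, with a mean severe difference of 3.77, had a median of 225 and as few as 59.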
